A study of Homo sapiens with 12 samples.

Results

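Tubulins are the proteins from which microtubules are built. The genes described here are 10 human tubulin genes, taken as the entries of the deposited table that carry the symbol TUBA1A, TUBA1B, TUBA1C, TUBB, TUBB2A, TUBB2B, TUBB3, TUBB4B, TUBB6 or TUBG1. All 10 were found, 1 entry each, among 25787 entries with a symbol and 78885 entries in all. All 10 also had a mean of at least 10 normalised counts over the 12 libraries and so belonged to the 14225 entries tested. The libraries hold total RNA of TC-71, a cell line of Ewing sarcoma, labelled as wild type in every group, with 3 biological replicates in each of 4 groups. Cells were kept for 16 h with DMSO, the solvent, or for 16 h with YK-4-279 at 2 mM, as the labels state the dose. YK-4-279 is a small molecule made to block the binding of the fusion protein EWS-FLI1 to the RNA helicase DHX9. The other groups were transfected with a scrambled control (scrambled) or against DHX9 (siDHX9) and collected at 48 h. The protocols call the agents siRNAs and the design text calls them shRNAs. All 12 libraries come from a single cell line, so p-values measure the spread between cultures of that line.

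Alpha and beta tubulin pair to form the building block of microtubules, and gamma tubulin sits in ring complexes from which microtubules grow. Cells make several versions of alpha and beta tubulin from separate genes, and the beta version encoded by TUBB3 is best known from neurons. Cells also adjust tubulin mRNA to the amount of free tubulin: the factor TTC5 binds the start of a new tubulin chain on the ribosome and, with SCAPER and the CCR4-NOT complex, brings about decay of the mRNA being translated.

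The coding starts are shown because that decay reads the beginning of the tubulin chain. They are the 30 bases from the start codon in GENCODE 29 (GRCh38), 5′ to 3′, with the codons for the first 4 amino acids in capitals:
TUBA1A, TUBA1B and TUBA1C: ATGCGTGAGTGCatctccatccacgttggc
TUBB: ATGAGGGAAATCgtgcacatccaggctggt
TUBB4B: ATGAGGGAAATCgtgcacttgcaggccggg
TUBB3: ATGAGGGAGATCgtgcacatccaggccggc
TUBB6: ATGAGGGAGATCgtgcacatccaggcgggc
TUBB2A: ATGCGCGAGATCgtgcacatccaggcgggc
TUBB2B: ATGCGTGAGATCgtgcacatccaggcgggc
TUBG1: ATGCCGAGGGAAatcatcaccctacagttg

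The 3 alpha genes had the same 30 bases. TUBB and TUBB4B shared their first 12 bases, as did TUBB3 and TUBB6. Each of these 12-base starts was found in 1 to 3 of 19563 coding genes, all with tubulin symbols. In amino acids, the first 4 codons read Met-Arg-Glu-Ile for all beta genes shown and Met-Arg-Glu-Cys for the 3 alpha genes. The 12-base starts of the beta genes thus differ in bases only. Values of genes with the same first 12 bases are given below. With YK-4-279 the log2 difference was -0.76 for TUBA1C and 0.04 for TUBA1A, and -0.51 for TUBB and -0.19 for TUBB4B. These differences between genes were not tested, and neither was the part of mRNA decay in any of the values.

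The promoters of TUBA1C and TUBB are shown because these 2 genes had the lowest values with YK-4-279 relative to DMSO. They are the 250 bases before the start site from RefSeq (GRCh38.p14), at chr12:49264832-49265081 and chr6:30720102-30720351, both on the plus strand. RefSeq lists 3 starts for TUBA1C and 2 for TUBB. The starts shown are the nearest ones before the coding starts above, and they were picked after the motif matches of all starts were known. The other starts of TUBA1C have CCAAT and no GGGCGG, and the other start of TUBB has GGGCGG and no CCAAT. Capitals mark CCAAT and GGGCGG on either strand, and no marked motifs overlap:
TUBA1C: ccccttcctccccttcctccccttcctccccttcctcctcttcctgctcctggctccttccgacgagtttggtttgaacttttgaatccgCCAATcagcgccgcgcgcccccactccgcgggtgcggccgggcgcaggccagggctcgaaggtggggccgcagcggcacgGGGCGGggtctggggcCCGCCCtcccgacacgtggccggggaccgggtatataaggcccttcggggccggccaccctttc
TUBB: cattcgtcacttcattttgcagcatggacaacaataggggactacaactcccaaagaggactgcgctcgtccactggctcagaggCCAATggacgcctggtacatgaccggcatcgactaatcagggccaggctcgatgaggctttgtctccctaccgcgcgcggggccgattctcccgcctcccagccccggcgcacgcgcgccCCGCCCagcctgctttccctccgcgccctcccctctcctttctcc

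Motifs were searched on both strands of the 300 bases around each RefSeq start, and a gene was counted if any of its starts had a match. CCAAT was present for 8 of the 10 tubulin genes and for 39.8% of 27058 genes. GGGCGG was also present for 8 of 10, against 48.2% of genes. Counting by gene favours genes with several starts. By start, CCAAT was at 10 of 15 tubulin starts and 34.6% of all 34796, and GGGCGG at 9 of 15 and 44.9%. CACGTG was present for 2, TUBA1C and TUBB, against 8.72%, and in TUBB it lies at the start not shown. TTTGAA was present for 2, TUBA1C and TUBB4B, against 18.2%, and TATAAA for TUBB2A only, against 14.1%. A match describes letters and does not show a bound site.

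Total depth ranged from 38568983 to 65547726 reads per library. The entry that holds DHX9, which also carries the symbol NPL, averaged 32689 normalised counts in scrambled and 20608 in siDHX9 cells, 37.0% lower with no overlap (exact permutation test, two-sided, p = 0.1, the smallest that 3 against 3 can give). All 8 Ewing sarcoma markers, CD99 and NKX2-2 among them, averaged at least 10 normalised counts. Of 10 markers of other cell types 2 did, COL3A1 and EPCAM, and KRT5 and CD3E were at 0 in all libraries. The summed level of those 10 markers was 168.9 in DMSO, 241.8 in YK-4-279, 289 in scrambled and 291.8 in siDHX9 cells. COL3A1 alone gave 154.4, 219.3, 271.3 and 275.4 of these sums in the same order. The part of these markers in the results was not tested. The ribosomal RNA entry took 8.79% ± 1.07 of reads with YK-4-279 and 5.19% ± 0.244 with DMSO, and 2.71% ± 0.915 with siDHX9 against 4.09% ± 0.963 with scrambled (SD, n = 3). Its part in the results was not tested either. In bulk RNA, fewer cells in a state and less RNA per cell cannot be told apart.

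Tubulin mRNA was abundant in TC-71 cells. The 10 genes together held 0.931% ± 0.0168 of all reads in DMSO, 0.958% ± 0.00808 in scrambled and 0.957% ± 0.0352 in siDHX9 cells (SD, n = 3). With YK-4-279 they held 0.683% ± 0.0122. Their summed normalised count was 459577 ± 9224 with DMSO and 362122 ± 12139 with YK-4-279, and the highest drug-treated library, 376085, lay below the lowest DMSO library, 452349. The sums in scrambled cells, 431690 to 460494, overlapped those in siDHX9 cells, 426280 to 520349.

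Levels of different genes were compared per kilobase of merged GENCODE exons. TUBB was highest in DMSO cells at 55781 ± 1279 normalised counts per kb, followed by TUBA1B at 46617 ± 2305, TUBB4B at 27940 ± 956 and TUBA1C at 21861 ± 246 (SD, n = 3). TUBB6 came next at 7597 ± 321 per kb, then TUBB3 at 4093 ± 354 and TUBB2A at 2995 ± 49.9. TUBG1, TUBB2B and TUBA1A were lowest at 1740 ± 67.8, 1550 ± 73.1 and 1014 ± 45.6 per kb. The order of TUBB2B and TUBA1A depends on the length used. TUBA1A has 3127 bases of merged exons and 1915 in the transcript used for its coding start, and TUBB2B has 2020 in both. No neighbours in the order by merged exons overlapped in DMSO or in YK-4-279 cells. With YK-4-279, TUBA1B at 41560 ± 570 per kb stood above TUBB at 39273 ± 1217. In scrambled cells only TUBB2A and TUBB2B overlapped. In siDHX9 cells TUBB3 stood above TUBB6 but their ranges overlapped, as did those of TUBB4B with TUBA1C and of TUBG1 with TUBB2B.

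**Figure D1:**
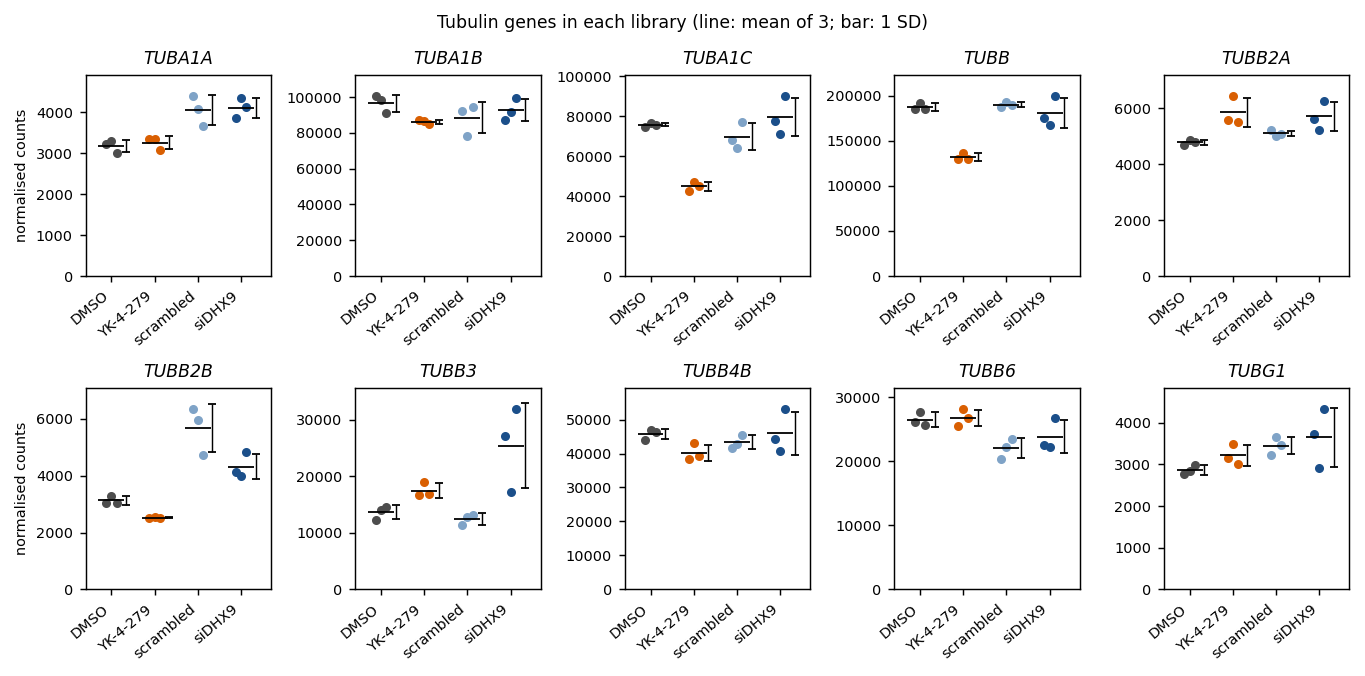
Normalised counts of each tubulin gene in the 12 libraries; points are libraries, lines are means of 3 and bars are 1 SD, and each panel has its own vertical axis from 0. TUBA1C and TUBB are low in the 3 YK-4-279 libraries, TUBB3 is high in siDHX9 libraries 1 and 3, and TUBB2B is high in the scrambled libraries.

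With YK-4-279, 3 of the 10 tubulin genes passed the test against DMSO (limma on log2 values of the normalised count plus 1, adjusted p under 0.05 over all entries tested): TUBA1C and TUBB fell and TUBB2A rose. Over all 14225 entries 13.8% were called, 7.33% higher and 6.49% lower. The median log2 difference was -0.08 for the 10 genes and 0.02 for all entries. The values of 8 of the 10 genes did not overlap between the groups, against 43.5% of all entries. When limma was fitted on only the 6 libraries compared, 7 genes passed, 2 higher and 5 lower: TUBA1B, TUBB2B and TUBB4B were then also called lower and TUBB3 higher. That fit called 4270 of all 14225 entries, against 1965 in the fit on 12 libraries.

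TUBA1C encodes an alpha tubulin at chr12:49621709-49667121 (hg19, the build of the deposited table). Its DMSO libraries had 74782, 76473 and 75797 normalised counts and its YK-4-279 libraries 42526, 47087 and 44791. Every treated library lay far below every DMSO library. The log2 difference was -0.76 (SE 0.09), 1.69-fold lower, with a limma adjusted p of 0.000156.

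TUBB, the class I beta tubulin, spans chr6:30687978-30959534 in the table. It had 184911, 192329 and 184863 normalised counts with DMSO and 129344, 136632 and 129781 with YK-4-279. These groups were also well apart, with an SD of 4297 and 4087. The log2 difference was -0.51 (SE 0.07), 1.42-fold lower, with a limma adjusted p of 0.000479.
That entry is 271.6 kb long and overlaps 10 other named entries with counts, which together reach 3.44% of its mean, FLOT1 alone 2.06%.

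TUBB2A, a class II beta tubulin at chr6:3153900-3157783, moved the other way. It had 4693, 4851 and 4788 normalised counts with DMSO and 5589, 6427 and 5511 with YK-4-279, a log2 difference of 0.29 (SE 0.08, limma adjusted p = 0.032). This call was lost when any of the 6 libraries was left out: adjusted p was 0.111, 0.0812 and 0.0829 without DMSO replicates 1, 2 and 3, and 0.0586, 0.155 and 0.0503 without YK-4-279 replicates 1, 2 and 3 (limma). TUBB2A and the neighbouring TUBB2B at chr6:3224495-3227968 are near-identical copies: 65.5% of the 50-base windows of TUBB2A and 52.2% of those of TUBB2B occur in another gene, mostly each other. How reads that match both were counted is not stated in the labels, so the split between them is uncertain. Such windows also made up 62.7% of TUBA1B, 33.0% of TUBA1A, 29.9% of TUBG1, 20.0% of TUBA1C, 18.2% of TUBB, 9.89% of TUBB4B and 0.993% of TUBB6. Windows that TUBA1A and TUBA1C share only with each other are not in these figures, since GENCODE places the genes at overlapping positions.

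The other tubulin genes did not pass the test with YK-4-279. TUBB2B had 3039, 3301 and 3052 normalised counts with DMSO and 2517, 2556 and 2499 with the drug (log2 difference -0.31, limma adjusted p = 0.0641; 0.0431 in edgeR and 0.0288 in DESeq2). TUBB3 had 12319, 14057 and 14575 against 16602, 18941 and 16818 (log2 difference 0.36, limma adjusted p = 0.167). Both were without overlap between the groups.
TUBB4B, a class IV beta tubulin at chr9:140135711-140138161, had 43962, 46919 and 46330 normalised counts with DMSO and 38361, 42961 and 39156 with YK-4-279 (log2 difference -0.19, limma adjusted p = 0.17). TUBA1B, the most abundant alpha gene per kb, at chr12:49521566-49525304, had 100567, 98142 and 91345 against 87160, 86551 and 84875 (log2 difference -0.16, limma adjusted p = 0.18). For both genes the treated libraries lay just below the DMSO libraries.
TUBG1, the gamma tubulin gene at chr17:40761358-40767254, had 2769, 2851 and 2991 normalised counts with DMSO and 3150, 3500 and 3001 with YK-4-279 (log2 difference 0.16, limma adjusted p = 0.389). TUBA1A at chr12:49578579-49583107 had 3211, 3289 and 3012 against 3345, 3339 and 3084 (log2 difference 0.04, limma adjusted p = 0.8). TUBB6, the class V beta tubulin at chr18:12307668-12329822, had 26164, 27755 and 25595 against 25480, 28091 and 26691 (log2 difference 0.01, limma adjusted p = 0.937). TUBG1 did not overlap by a narrow margin, and the ranges of TUBA1A and TUBB6 overlapped.

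In siDHX9 cells, 2 of the 10 genes passed the test against scrambled: TUBB3 rose and TUBB2B fell (limma). Over all entries 16.7% were called, 8.75% higher and 7.97% lower. The median log2 difference was 0.07 for the tubulin genes and -0.00 for all entries. TUBB3 and TUBB2A were the 2 genes without overlap between the groups, against 29.3% of all entries.

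TUBB3, the class III beta tubulin at chr16:89985573-90002505, had 11315, 12880 and 13208 normalised counts in scrambled cells and 27208, 17236 and 31829 in siDHX9 cells. Every siDHX9 library was higher, but replicate 2 was much nearer to the controls than replicates 1 and 3. The log2 difference was 0.99 (SE 0.16), 1.98-fold higher, with a limma adjusted p of 0.00182. It was called in all 25 alternative fits, with log2 differences of 0.80 to 1.24. Of the 50-base windows of TUBB3, 8.84% occur in a gene at another locus, and no other entry of the table overlaps it.

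TUBB2B had 6335, 5966 and 4723 normalised counts in scrambled cells and 4129, 3998 and 4827 in siDHX9 cells. The groups overlapped, since the lowest scrambled library lay below the highest siDHX9 library. The log2 difference was -0.39 (SE 0.10, limma adjusted p = 0.0244). DMSO cells, at 3131, lay below both groups. The adjusted p was 0.0985 without scrambled replicate 1, 0.0764 without scrambled replicate 2, 0.0793 without siDHX9 replicate 1, and 0.124 when only the 6 libraries compared were fitted (limma).

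The 8 other tubulin genes differed by -0.08 to 0.19 on the log2 scale between siDHX9 and scrambled cells. TUBA1C, which was low with the drug, had 68166, 63796 and 77298 normalised counts in scrambled and 77414, 71041 and 89994 in siDHX9 cells (log2 difference 0.19, limma adjusted p = 0.162). TUBB had 187182, 192770 and 189349 against 174803, 167242 and 199454 (log2 difference -0.08, limma adjusted p = 0.467). The groups overlapped for both genes. TUBG1 had 3233, 3650 and 3479 normalised counts in scrambled cells and 3734, 2915 and 4323 in siDHX9 replicates 1 to 3 (log2 difference 0.07, limma adjusted p = 0.731). Replicate 2 was the lowest siDHX9 library for TUBG1, as for TUBB3 and every other tubulin gene except TUBA1A and TUBA1B.
TUBB2A had 5205, 4997 and 5078 normalised counts in scrambled and 5625, 5233 and 6248 in siDHX9 cells (log2 difference 0.16, limma adjusted p = 0.186), without overlap. TUBA1B had 92163, 78462 and 94697 against 87350, 91492 and 99773 (log2 difference 0.07, limma adjusted p = 0.545). TUBB4B had 41654, 42926 and 45503 against 44230, 40594 and 52985 (log2 difference 0.08, limma adjusted p = 0.583). TUBA1B and TUBB4B overlapped between the groups. TUBB6, with 22509, 22183 and 26796 normalised counts in siDHX9 cells (log2 difference 0.11, limma adjusted p = 0.372), and TUBA1A, with 3845, 4345 and 4121 (0.03, limma adjusted p = 0.86), overlapped their scrambled values too.

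The effect of the drug was then set against that of the knockdown within a single limma fit, as the YK-4-279 difference minus the siDHX9 difference. TUBA1C (-0.94, SE 0.13, adjusted p = 0.000681) and TUBB (-0.43, SE 0.10, adjusted p = 0.0145) passed this limma test, 2 of 10 genes, both lower with the drug. Over all entries 9.69% were called, 4.4% higher and 5.29% lower. TUBB3 did not pass (-0.63, SE 0.23, limma adjusted p = 0.102), and its differences were 0.36 with the drug and 0.99 with the knockdown. TUBB3 did pass in 3 of 24 alternatives: after quantile normalisation (-0.62, limma adjusted p = 0.0433), in DESeq2 (-0.68, adjusted p = 0.0338) and without siDHX9 replicate 2 (-0.89, limma adjusted p = 0.000927). The TUBB call was lost when no minimum count was set (limma adjusted p = 0.0637).

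Scrambled cells were also compared with DMSO cells, which shows how the controls differ. Transfection and time in culture change together here and cannot be told apart, and this comparison shares its libraries with those above. TUBB2B and TUBA1A rose and TUBB6 fell, 3 of 10 genes, against 18.9% of all entries (limma), 9.7% higher and 9.22% lower. TUBB2B averaged 5675 ± 845 normalised counts in scrambled and 3131 ± 148 in DMSO cells (SD, n = 3), a log2 difference of 0.85 (SE 0.10, limma adjusted p = 0.000216), and was called in all 25 alternative fits.
TUBA1A had 4388, 4068 and 3658 normalised counts in scrambled cells, above the 3012 to 3289 of DMSO cells (log2 difference 0.35, limma adjusted p = 0.0118). That call was lost without DMSO replicate 3 (limma adjusted p = 0.0583) or scrambled replicate 1 (0.0576). TUBB6 had 20415, 22174 and 23503 against 25595 to 27755 (log2 difference -0.27, limma adjusted p = 0.0364). Its adjusted p rose to between 0.0553 and 0.138 when any of DMSO replicates 1, 2 and 3, scrambled replicates 1 and 2 or YK-4-279 replicate 3 was left out (limma).
Of the tubulin genes, 5 did not overlap between scrambled and DMSO cells, against 40.8% of all entries. The TUBA1A entry holds 6 short entries without a symbol, of 24 to 98 bp, whose summed mean is 100.9% of its own. The labels do not state whether the same reads were counted in both. TUBB6 overlaps AFG3L2, whose mean is 16.3% of its own.

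**Figure D2:**
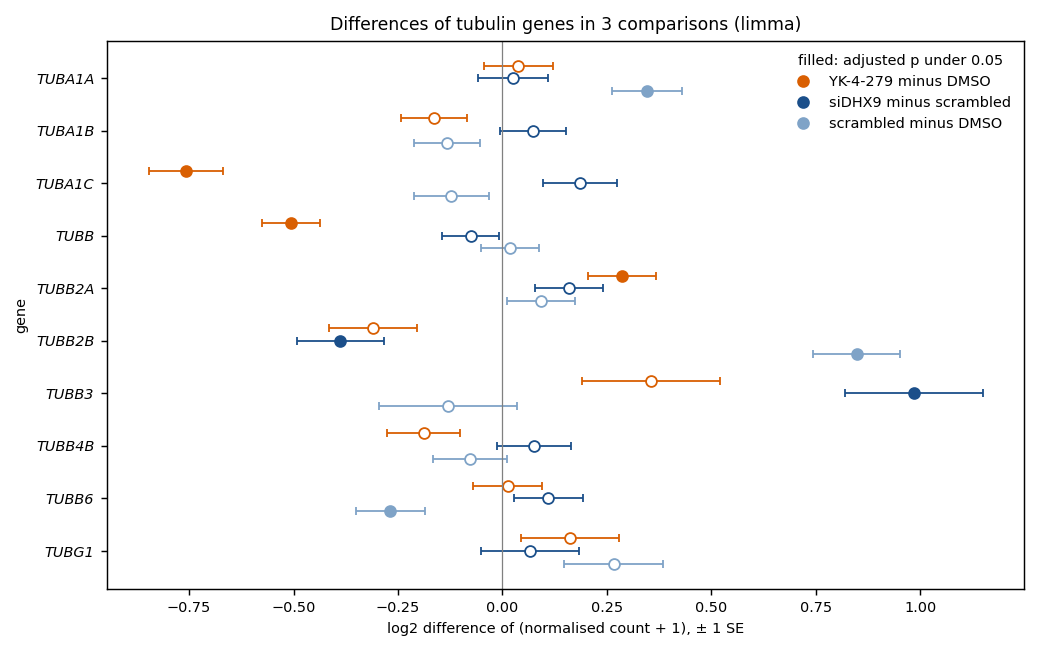
Log2 differences of the 10 tubulin genes in 3 comparisons, each with a bar of 1 SE from limma; filled points passed an adjusted p under 0.05. The filled points of TUBA1C (-0.76) and TUBB (-0.51) belong to YK-4-279, TUBB3 lies at 0.99 for siDHX9, and TUBB2B lies at 0.85 for scrambled minus DMSO.

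The make-up of the tubulin counts is given as a description with no test, since these shares and ratios were chosen after the values were seen. TUBA1C held 43.1% ± 1.34 of the alpha counts with DMSO and 33.4% ± 1.25 with YK-4-279 (SD, n = 3). Its share was 43.0% ± 1.41 in scrambled and 45.0% ± 2.09 in siDHX9 cells. The 3 drug-treated libraries stood below the 9 others.
TUBB held 66.6% ± 0.519 of the beta counts with DMSO, 58.7% ± 0.694 with YK-4-279, 68.2% ± 0.779 in scrambled and 63.3% ± 1.71 in siDHX9 cells. TUBB3 held 4.85% ± 0.371, 7.76% ± 0.240, 4.47% ± 0.281 and 8.79% ± 1.79 in the same order. Its share was thus higher in both treated groups than in their controls, without overlap. The beta counts, mostly TUBB, averaged 281168 with DMSO and 224653 with YK-4-279, and 278394 in scrambled and 285709 in siDHX9 cells. TUBB3 itself did not pass with YK-4-279 (log2 difference 0.36, limma adjusted p = 0.167). The part of the lower beta sum in its share was not tested. The ratio of TUBB2B to TUBB2A was 0.655 ± 0.0225 with DMSO, 0.434 ± 0.0314 with YK-4-279 1.11 ± 0.159 in scrambled and 0.757 ± 0.0202 in siDHX9 cells.
The ratio of beta to alpha counts was 1.60 ± 0.0540 with DMSO and 1.67 ± 0.0424 with YK-4-279, and these ranges overlapped.

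**Figure D3:**
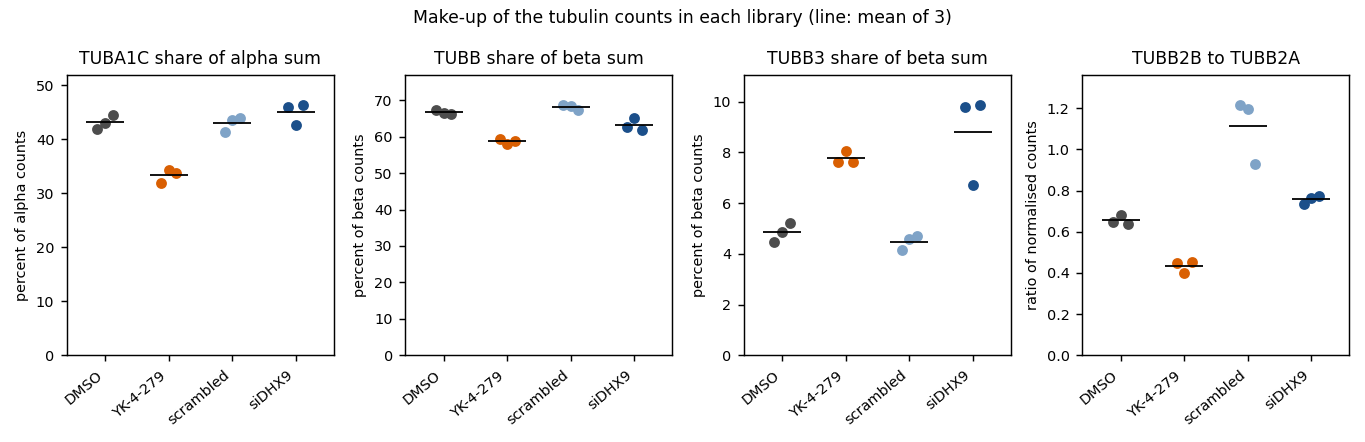
Share of TUBA1C in the alpha counts, shares of TUBB and TUBB3 in the beta counts, in percent, and the ratio of TUBB2B to TUBB2A, by library; lines are means of 3 and vertical axes start at 0. The TUBA1C share is about 33.4% with YK-4-279 and 43.0% to 45.0% in the other groups.

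Across the 12 libraries, the levels of TUBA1C and TUBB went together (Pearson r = 0.93 of log2 values), as did those of TUBA1A and TUBB2B (0.84), while TUBB2B and TUBB6 ran opposite (-0.75). These are descriptions over libraries that share groups. Outside the tubulins, the entries most like TUBA1C were MKI67, a marker of dividing cells (r = 0.99), UBE2C, which serves the anaphase-promoting complex (0.98), and BEX3 (0.98). Those most like TUBB were CDCA3, CDC45, a replication factor, and CRTAP, each at 0.98. MKI67 averaged 18191 normalised counts with DMSO and 10818 with YK-4-279, and its part in the TUBA1C difference was not tested. Those most like TUBB3 were ENSA and ABCC10 (both 0.96) and TMEM214 (0.95).

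Partner genes were counted by role. The lists, like the 10 genes, were chosen with earlier results of these data known. Among 7 other tubulin genes that reached the minimum, TUBB4A rose with YK-4-279, from 265, 284 and 238 normalised counts to 353, 412 and 425 (log2 difference 0.60, limma adjusted p = 0.0123). It fell with siDHX9 (-0.54, limma adjusted p = 0.0192), and its drug and knockdown differences differed by 1.13 (limma adjusted p = 0.00336). Its controls differed too, at 262 with DMSO and 447 in scrambled cells (0.76, limma adjusted p = 0.00245). TUBA8, an alpha tubulin, rose with siDHX9 from 96.5, 136 and 125 to 198, 205 and 219 normalised counts (log2 difference 0.81, limma adjusted p = 0.00685).

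A list of 15 genes held subunits of chaperonin TRiC, which folds tubulin, and of prefoldin, which delivers it, and PDCL3. None passed in limma in any of the 4 comparisons. Over all entries limma called 13.8% with YK-4-279, 16.7% with siDHX9, 9.69% in the difference of effects and 18.9% in scrambled minus DMSO. At an unadjusted p under 0.05 the list had 1 gene with YK-4-279, 4 with siDHX9, 1 in the difference of effects and 3 in scrambled minus DMSO. The edgeR test called 0, 0, 0 and 1 of them in that order, and DESeq2 0, 0, 0 and 2. Of 6 folding cofactors, 0 passed with YK-4-279 in limma, edgeR and DESeq2, and 0 had an unadjusted p under 0.05. With siDHX9, TBCB rose (0.37, limma adjusted p = 0.0251) and TBCE fell (-0.26, limma adjusted p = 0.0262). These are 2 of the 6, where 16.7% of all entries were called. TBCB overlaps POLR2I, whose mean is 93.0% of its own.

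A list of 20 genes covered the gamma-tubulin ring complex, augmin, which recruits it to spindle microtubules, and the partner proteins CDK5RAP2, AKAP9 and PCNT. Of these 20, 6 fell with YK-4-279 and 0 rose (limma), where 6.49% of all entries were called lower and 7.33% higher. Their median log2 difference was -0.26 against 0.02 for all entries. Augmin subunit HAUS1 had 4596, 4367 and 4588 normalised counts with DMSO and 3070, 3312 and 3318 with the drug (log2 difference -0.48, limma adjusted p = 0.00148). Ring subunit TUBGCP5 had 2486, 2422 and 2338 against 1825, 1726 and 1747 (-0.45, limma adjusted p = 0.00198). HAUS8 and TUBGCP6 also fell, by 0.52 and 0.39 on the log2 scale (limma adjusted p = 0.00301 and 0.0111).
With siDHX9, 2 of the 20 fell, TUBGCP5 (-0.40, limma adjusted p = 0.00449) and TUBGCP3 (-0.39, limma adjusted p = 0.0323), where 7.97% of all entries were called lower. TUBGCP3 averaged 1768 normalised counts in DMSO, 2230.0 in scrambled and 1701 in siDHX9 cells. The gamma tubulin gene TUBG1 itself passed in neither comparison.

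Among 12 genes of tubulin mRNA decay, CNOT3, a subunit of CCR4-NOT, rose with YK-4-279 (log2 difference 0.55, limma adjusted p = 0.00474). It was the only gene of this list called with the drug, where 13.8% of all entries were called. Entries that overlap CNOT3 and CNOT7 reach 27.1% and 31.9% of their means. TTC5, the factor that recognises the new tubulin chain, had 527, 489 and 494 normalised counts with DMSO and 569, 491 and 598 with the drug (0.13, limma adjusted p = 0.476), and these groups overlapped. With siDHX9, TTC5 fell from 700, 757 and 736 to 471, 608 and 543 (-0.44, limma adjusted p = 0.0198), and the deadenylases CNOT7 and CNOT8 fell as well (-0.39 and -0.45, limma adjusted p = 0.00897 and 0.0188). That is 3 of 12 genes, where 7.97% of all entries were called lower. The controls differed for TTC5, at 503 in DMSO and 731 in scrambled cells (0.54, limma adjusted p = 0.00598), and for CNOT8, at 763 and 1087 (0.51, limma adjusted p = 0.00804). The siDHX9 means of TTC5 and CNOT8, 541 and 804, lay nearer to DMSO than to scrambled.

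Of 20 enzymes that modify tubulin, 3 rose and 2 fell with YK-4-279 (limma), where 7.33% of all entries were called higher and 6.49% lower. The glutamylase TTLL1 (0.60, limma adjusted p = 0.00549), the acetyltransferase ATAT1 (0.51, limma adjusted p = 0.00699) and the deglutamylase AGBL5 (0.33, limma adjusted p = 0.0412) rose. The glutamylase TTLL7 (-0.85, limma adjusted p = 0.0399) and the entry of KIAA0895L and EXOC3L1 (-0.56, limma adjusted p = 0.0371) fell. AGBL5 and the last entry overlap OST4 and NOL3, and overlapping entries reach 346% and 438% of their means. With siDHX9 only TTLL6 passed (0.87, limma adjusted p = 0.0355), where 16.7% of all entries were called. Of 24 assembly and severing factors, MAP1S rose and CKAP5 and FIGNL1 fell with YK-4-279, 3 genes where 13.8% of all entries were called, a share close to that background. CKAP5, a polymerase of microtubule ends, had 12480, 11548 and 10799 normalised counts with DMSO and 8498, 7524 and 8238 with the drug (-0.52, limma adjusted p = 0.00197). With siDHX9, STMN3 rose (0.70, limma adjusted p = 0.0296) although its groups overlapped, and the microtubule-end proteins CLASP1 and CLASP2 fell (-0.63 and -0.41, limma adjusted p = 0.0406 and 0.0439). These are 3 of 24 genes, where 16.7% of all entries were called. STMN3 averaged 15201 normalised counts in DMSO, 7419 in scrambled and 12542 in siDHX9 cells, and its control difference was -1.04 (scrambled minus DMSO, limma adjusted p = 0.00333). CLASP1 averaged 256, 364 and 233 in the same order. An entry overlapping STMN3 has 12.9% of its mean.

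In the difference of effects, where 9.69% of all entries were called, limma called 1 of the 7 other tubulin genes higher and 1 lower, 2 of the 20 ring and augmin genes lower, 3 of the 12 decay genes higher and 1 of the 24 assembly and severing factors lower. It called 0 of the 6 cofactors (1 at an unadjusted p under 0.05, 0 in edgeR and DESeq2) and 0 of the 20 modifying enzymes (3 at an unadjusted p under 0.05, 0 in edgeR and 1 in DESeq2). In scrambled minus DMSO, where 18.9% of all entries were called, limma called 3 higher and 1 lower of the other tubulin genes, 1 higher of the ring and augmin genes, 2 higher and 1 lower of the decay genes, 2 higher of the modifying enzymes, and 3 higher and 2 lower of the assembly and severing factors. Of the cofactors it called 0 (1 at an unadjusted p under 0.05, 0 in edgeR and 1 in DESeq2).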

How the data were processed

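RNA of 12 TC-71 libraries in 4 groups was analysed. The submitters' processing notes name STAR 2.4.0, Picard, SAMtools, FastQC and DESeq with build hg19. The deposited values are a signal per entry, counts divided by size factors, to 2 decimals; the labels do not state how the authors treated strand and shared reads. Every value above 0 was a whole multiple of a step per library within 0.1, which gave the depth, 38568983 to 65547726 reads. The test was limma 3.58.1 (R 4.3.3) on log2(value + 1), all 12 libraries, 1 mean per group, a mean-variance trend, residual df of 8, over named entries with a mean of at least 10, Benjamini-Hochberg adjusted, two-sided. The test was tested on simulated data. edgeR 4.0.16 and DESeq2 1.42.0 on recovered reads were alternatives. All 10 genes are named. Of each other list up to 4 called genes (smallest adjusted p, no overlap) and up to 2 others are named, and for TUBB, TUBA1C and TUBB3 the 3 most correlated entries. The members and lists were chosen with earlier results of these data known. Shares, shared windows, overlaps, coding starts and motifs were added after values were seen.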

Additional observations from a re-analysis of the deposited data

How the results depend on the processing

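Between 24 and 25 alternatives were fitted per comparison. TUBA1C and TUBB with YK-4-279, TUBB3 with siDHX9 and TUBB2B in scrambled minus DMSO were called in 25 of 25, TUBA1C in the difference of effects in 24 of 24, TUBB there in 23 of 24. TUBB2A with YK-4-279 was called in 17 of 25, TUBB2B with siDHX9 in 20 of 25, TUBA1A and TUBB6 in scrambled minus DMSO in 23 and 17 of 25. Members called with YK-4-279 numbered 3, and 5 after quantile normalisation (all entries 2052 in place of 1965). They numbered 7 when only the 6 libraries compared were fitted, where all entries called rose from 1965 to 4270. With siDHX9 they numbered 2, and 1 with only the 6 libraries (all entries 492 in place of 2378). They also numbered 1 with no mean-variance trend (all entries 1812). In the difference of effects they numbered 2, 1 with no minimum (all entries 1144) and 4 after quantile normalisation (all entries 1637). There DESeq2 called 3 members, and 2097 entries in place of 1379. In scrambled minus DMSO they numbered 3, and 5 after quantile normalisation (all entries 2697 in place of 2692). The cause of these moves was not tested. Leaving out each library in turn gave 2 to 5, 1 to 3, 2 to 3 and 1 to 4 members, and 858 to 2795, 1244 to 4255, 762 to 1883 and 1431 to 3485 entries, in the order YK-4-279, siDHX9, difference, scrambled minus DMSO. The DHX9 log2 difference of -0.67 ranged from -0.72 to -0.62, an alternative chosen after seeing the data. Deviations from the group mean correlated at r of -0.02 to 0.12 between same-numbered libraries of different groups, and at -0.14 to 0.08 between differently numbered ones. Same-numbered scrambled and siDHX9 libraries were at 0.05, 0.06 and 0.08. With a replicate block 2, 2, 2 and 3 members were called, in the same order of comparisons. All entries called were then 1601, 2118, 1118 and 2430, in place of 1965, 2378, 1379 and 2692. TUBB2A with YK-4-279 had a limma adjusted p of 0.0562 with the block.

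Values that reversed were all of genes not called. TUBB6 with YK-4-279 was -0.0137 with TMM factors, -0.0343 after quantile normalisation, -0.0132 in edgeR and -0.0029 in DESeq2. After quantile normalisation TUBA1A and TUBA1B with siDHX9 were -0.0117 and -0.1224, and TUBA1B and TUBB4B in scrambled minus DMSO 0.0142 and 0.0262. TUBA1A in the difference of effects was -0.0027 with TMM factors. Values that reversed with a library left out ranged, in log2, from -0.0226 to 0.0478 for TUBB6 with YK-4-279. With siDHX9 the ranges were -0.0438 to 0.0875 for TUBA1A, -0.0107 to 0.1249 for TUBA1B, -0.0323 to 0.1599 for TUBB4B and -0.0643 to 0.2198 for TUBG1. In the difference of effects they were -0.0493 to 0.082 for TUBA1A, -0.0068 to 0.2051 for TUBB2B and -0.0577 to 0.2264 for TUBG1.

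Depth was not low for any member: the lowest value was 2329 reads, for TUBB2B with YK-4-279 and TUBG1 with DMSO. The number of libraries, 3 per group, limits precision.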
